A study of Mus musculus with 5 samples.

Results

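Cells keep a set of cytosolic heat shock chaperones that fold new proteins and hold or refold damaged ones. The mRNAs of 10 such genes were followed here in mouse N2A neuroblastoma cells after knockdown of Upf1, the RNA helicase on which nonsense-mediated mRNA decay (NMD) depends. The genes were Hsp90aa1 and Hsp90ab1 (HSP90), Hspa8, Hspa1a and Hspa1b (HSP70), Hsph1 (HSP110), Dnaja1 and Dnajb1 (J-domain proteins), Bag3 (a partner of HSP70) and Hspb1 (a small heat shock protein). They were taken by name from the 55573 genes of the count table. All 10 had a read in some library, and 7 of them had enough reads for an adjusted p-value.

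N2A (Neuro-2A) is an established line. Its cells were transfected with 60 pmol of a commercial negative control siRNA (siCtl, n = 2, replicates 1 and 3) or with the same amount of Upf1 siRNA (siUpf1, n = 3, replicates 1, 2 and 3). Polyadenylated RNA was sequenced. The comparison was made in the study to find transcripts whose level depends on UPF1 in neural cells. No heat shock or other stress treatment was part of either group. The labels give the libraries as separate samples but do not say that they came from separate cultures, so the p-values measure only the spread between these samples, which may be technical.

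HSP70 proteins bind and release unfolded stretches of protein in a cycle driven by ATP. J-domain proteins bring clients and start ATP hydrolysis, and exchange factors such as HSP110 and the BAG proteins remove the ADP so that the client is let go. HSP90 acts later on clients that are nearly folded, many of them kinases and receptors. Some of these genes, such as Hspa8 and Hsp90ab1, are active in unstressed cells, and others, such as Hspa1a, Hspa1b and Hspb1, are known for their induction by the transcription factor HSF1, which binds heat shock elements in promoters.

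The labels were checked with the siRNA target. Upf1 had 5217 and 5243 normalized read counts in the siCtl libraries and 2403, 2496 and 2449 in the siUpf1 libraries. The siUpf1 level was 46.8% of the siCtl level (log2 fold change -1.10, SE 0.051, DESeq2 adjusted p = 7.09e-101), so the knockdown was partial at the RNA level.

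In siUpf1, 6 of the 7 tested chaperone genes fell and none rose. The abundant genes Hspa8 and Hsp90ab1 fell to 72.9% and 73.8% of their siCtl level. Bag3 fell to 80.4%, Dnaja1 to 84.5%, Hsp90aa1 to 88.1% and Dnajb1 to 90.3%, whereas Hsph1 stood at 103.6% and was not called. Hspa1a, Hspa1b and Hspb1 had at most 4 reads in any library, in either group.

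These counts stand against a broad response to the knockdown. DESeq2 called 44.9% of the 15191 genes tested at an adjusted p-value under 0.05, with 22.9% lower and 22% higher in siUpf1. Among the 5727 genes with a mean of at least 1000 normalized read counts, a level that each of the 7 tested chaperone genes reached, 34.6% were called lower and 30.6% higher. At an unadjusted p-value under 0.05 the number of chaperone genes that were higher was also 0, as it was with edgeR. The median log2 fold change of the 7 tested genes was -0.24, and that of all tested genes was -0.0024. All 7 had no overlap between the groups, which was true of 69.4% of all tested genes.

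Libraries held 20402205 to 27717594 assigned reads. The neuroblastoma label was checked with 14 markers of the neural crest lineage, among which Phox2a and Hand2 were high and Nefl and Nefm had at most 10 reads in each library. The summed level of these markers was 1479 to 1511 CPM (counts scaled to the library total) in siCtl and 1848 to 1931 in siUpf1, with 8 of 11 tested markers higher and 1 lower. Summed levels of 6 fibroblast markers (Col3a1 and Lum at 0 in every library) were 11.5 to 12.1 CPM in siCtl and 8.73 to 10.4 in siUpf1, with Pdgfra called lower. For 6 astrocyte and oligodendrocyte markers (Slc1a3 and Mog at 0) they were 18.7 to 20.2 and 21.4 to 22.1, with 0 markers called by DESeq2, 0 at its unadjusted p-value under 0.05 and 1 called by edgeR. For 6 blood and endothelial markers they were 10.0 to 10.5 and 6.62 to 6.999, with Pecam1 called lower. The part of these marker shifts in the chaperone results was not tested. In these bulk samples, fewer cells of a type and less RNA per cell cannot be told apart.

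Promoter windows from RefSeq (GRCm38.p6, 250 bases before to 50 after each annotated start) were matched for 7 of the 10 genes, all but Hspa8, Hsp90aa1 and Hsp90ab1. A heat shock element is built from GAA units that alternate with their reverse complement TTC. Neighboring units that face each other or face apart, GAANNTTC or TTCNNGAA, read the same on both strands. At least 1 such pair was present in the windows of 6 of the 7 genes, against 17% of the 27025 genes with a window. The stretches are shown because matching letters were present both in genes that were near 0 in both groups and in genes that were expressed. Capitals mark the units, and positions count the first transcribed base as 1 and the base before it as -1.
Hspa1a, pair from base -104 (chr17:34972242-34972271, minus strand): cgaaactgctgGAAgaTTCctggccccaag
Hspa1b, pair from base -104 (chr17:34959324-34959353, minus strand): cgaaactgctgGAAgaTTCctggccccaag
Hspb1, pair from base -117 (chr5:135887791-135887820, plus strand): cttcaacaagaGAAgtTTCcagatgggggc
Hspb1, pair from base -97 (chr5:135887811-135887840, plus strand): agatgggggcaGAAccTTCctggccccgcc
Dnaja1, pair from base -124 (chr4:40722333-40722362, plus strand): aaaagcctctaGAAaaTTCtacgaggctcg
Hsph1, pair from base -33 (chr5:149636351-149636380, minus strand): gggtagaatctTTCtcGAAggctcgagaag
Hsph1, 3 units from base 16 of its second annotated start (chr5:149636282-149636311, minus strand): aatgctgcagaTTCtgGAAagTTCtcctca
Bag3, pair from base 43 (chr7:128523614-128523632, plus strand): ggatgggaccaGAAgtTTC

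The windows of Hspa1a and Hspa1b were identical at 296 of 300 bases, and their pair lay in the same sequence. A run of 3 alternating units, GAANNTTCNNGAA or TTCNNGAANNTTC, was found in 1 of the 7 genes, Hsph1, against 0.662% of all genes with a window. Each run of 3 contains 2 overlapping pairs. The Dnajb1 windows held no pair. The pair of Bag3 and the run of Hsph1 lay after the RefSeq start and thus in transcribed sequence. The GENCODE bounds of Hsph1 and Dnaja1 also take in the Hsph1 pair at base -33 and the Dnaja1 pair. Genes with a pair therefore included Hspa1a, Hspa1b and Hspb1, which were near 0, Hsph1, which was not called, and Dnaja1 and Bag3, which fell. These matches describe letters in a window and are not a measure of binding.

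**Figure D1:**
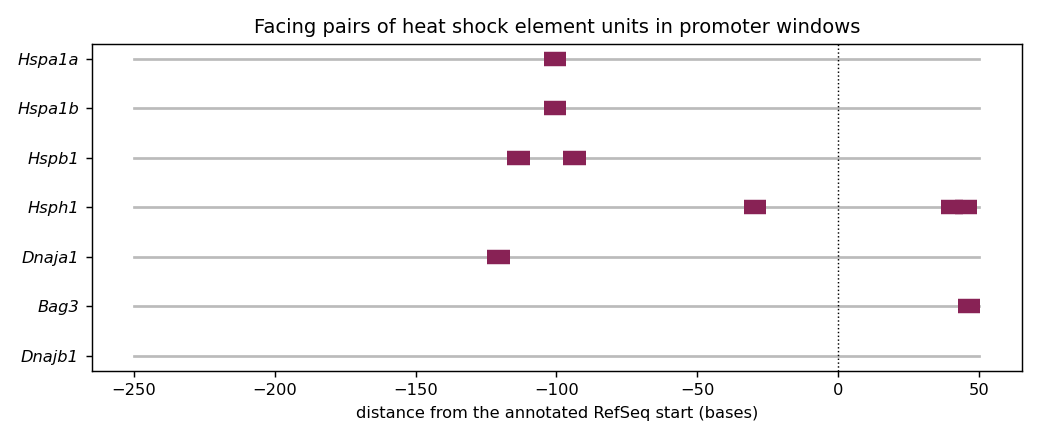
Position of facing unit pairs (GAA and TTC, 2 bases apart) in the first-listed RefSeq promoter window of 7 chaperone genes. The x axis is the distance in bases from the annotated start (dotted line), gray lines are the windows and bars are the pairs. Pairs of Hspa1a, Hspa1b, Hspb1 and Dnaja1 lie about 100 bases before the start, Hsph1 has a pair just before the start, the pair of Bag3 and the overlapping pairs of Hsph1 lie after it, and Dnajb1 has none.

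Hsp90ab1 was the most abundant of the 10 mRNAs. Hsp90ab1 (ENSMUSG00000023944.14, chr17:45567775-45573271, minus strand, GRCm38) encodes HSP90 beta, the form made at a high rate in most cells. It had 132461 and 134366 normalized read counts in siCtl and 97796, 100947 and 96777 in siUpf1. Every siUpf1 library lay far below both siCtl libraries. The log2 fold change was -0.44 (SE 0.035, DESeq2 adjusted p = 5e-34). Hsp90ab1 alone took 0.522% and 0.536% of all assigned reads in siCtl and 0.392% to 0.402% in siUpf1. Among its 8 annotated transcripts in GENCODE M21, 1 is classed as a target of NMD, and counts per gene do not separate it from the others. None of the 100-base windows (the length of a read) of its longest coding transcript occurred in another annotated gene.

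Hsp90aa1 (ENSMUSG00000021270.13, chr12:110690605-110702728, minus strand) encodes HSP90 alpha, the form that also responds to stress. Its normalized read counts were 14679 and 16150 in siCtl and 14428, 13245 and 13055 in siUpf1. The siUpf1 libraries lay below siCtl, but siUpf1 replicate 1 was nearer to siCtl replicate 1 than the siCtl libraries were to each other. The log2 fold change was -0.18 (SE 0.053, DESeq2 adjusted p = 0.00166). This call rested on single libraries. Without siCtl replicate 3 the log2 fold change was -0.11 with an adjusted p of 0.188, and without siUpf1 replicate 2 it was -0.17 with an adjusted p of 0.185 (DESeq2), whereas the call held without each of the other libraries. Of the 100-base windows of its longest coding transcript, 47.5% also occur in one of 3 processed pseudogenes. The most covered of these by reads, Gm5844, had 183 to 338 reads per library.

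The ratio of reads between the HSP90 genes does not depend on how libraries are scaled. There were 9.02 and 8.32 Hsp90ab1 reads for each Hsp90aa1 read in siCtl and 6.78, 7.62 and 7.41 in siUpf1. The ratio was thus lower in each siUpf1 library than in both siCtl libraries, with means of 8.67 ± 0.498 (SD, n = 2) and 7.27 ± 0.439 (SD, n = 3). With 2 libraries against 3, the smallest p of an exact permutation test is 0.1, so this ratio and those that follow were not tested. In each ratio given, the first gene has the lower log2 fold change of the pair. A lower ratio in siUpf1 thus repeats the fold changes and is no separate result.

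**Figure D2:**
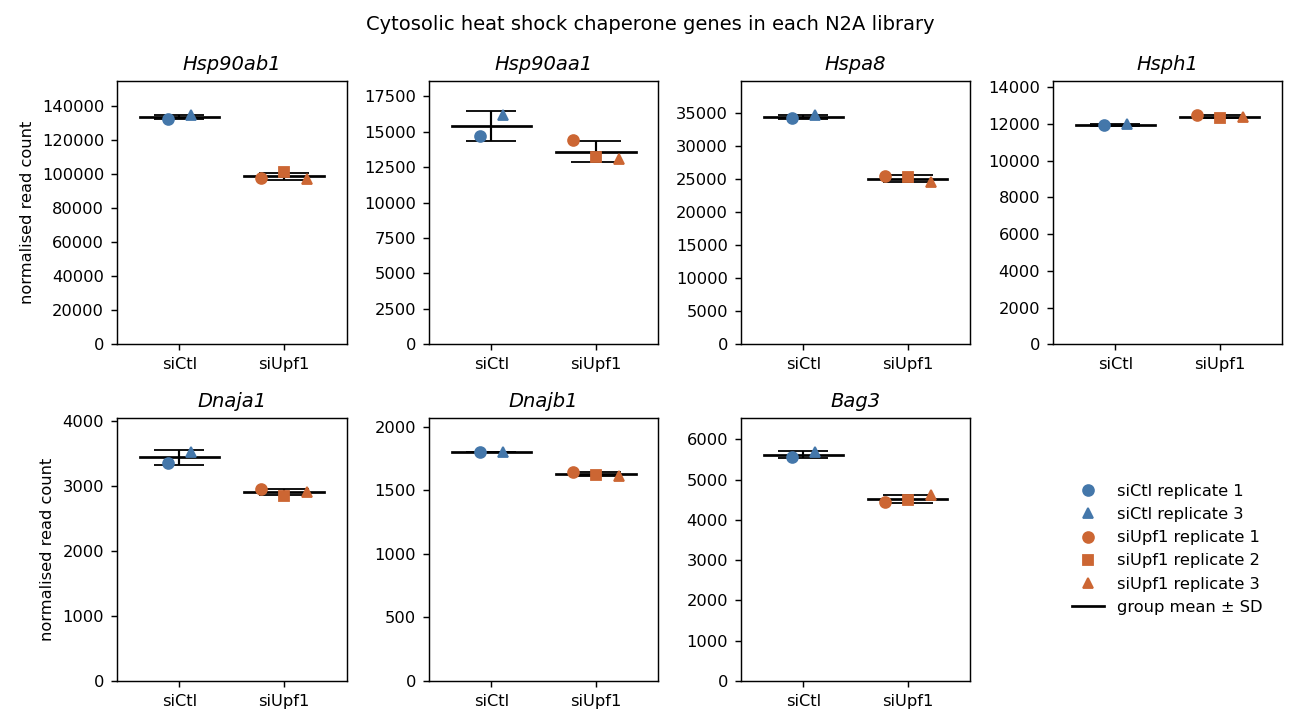
Normalized read counts of the 7 tested chaperone genes in each library, 1 panel per gene with its own y axis from 0. Blue symbols are siCtl, orange symbols siUpf1, the symbol shape gives the replicate number, and black lines are group means with SD. The siUpf1 points lie below the siCtl points in every panel except Hsph1, with the widest gaps for Hspa8 and Hsp90ab1 and the narrowest relative to replicate spread for Hsp90aa1.

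Among the HSP70 genes, Hspa8 carried nearly all reads. Hspa8 (ENSMUSG00000015656.17, chr9:40800984-40810087, plus strand) encodes HSC70, the constitutive HSP70 of the cytosol, which also strips clathrin from vesicles. It had 34218 and 34651 normalized read counts in siCtl and 25448, 25305 and 24513 in siUpf1. The groups were well apart and each was tight. The log2 fold change was -0.46 (SE 0.036, DESeq2 adjusted p = 2.15e-34), the largest decrease among the 7 tested genes.

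Hspa8 is a gene with many copies in the genome that were made from its mRNA. Of the 2295 windows of 100 bases in its longest coding transcript, 63.4% also occur in other annotated genes, most of them in the processed pseudogene Gm15459, which shares 1342. The row of Gm15459 had 9282 and 9998 reads in siCtl and 8106, 5798 and 8009 in siUpf1, far more than the other 7 pseudogenes, none of which passed 31 reads in a library. On the log2 scale Gm15459 fell by 0.41 (SE 0.042, DESeq2 adjusted p = 1.54e-21), and Hspa8 fell by 0.46. Its reads were 21.4% to 22.6% of the sum of both rows in every library. With both rows added together, the log2 fold change of Hspa8 was -0.45 (SE 0.035, DESeq2 adjusted p = 3.68e-35). Counts do not show from which locus these reads were transcribed, and Gm15459 and its sum with Hspa8 were chosen after their values were seen. Hspa8 is also the only one of the 10 genes that holds small nucleolar RNA genes (Snord14c, Snord14d and Snord14e) within its bounds.

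Hspa1a (ENSMUSG00000091971.3, chr17:34969190-34972156, minus strand) and Hspa1b (ENSMUSG00000090877.3, chr17:34956436-34959238, minus strand) encode the stress-induced HSP70. Both consist of a single exon. Hspa1a had 0 reads in both siCtl libraries and 1, 0 and 1 in siUpf1. Hspa1b had 4 and 4 reads in siCtl and 0, 0 and 2 in siUpf1. All of these are at or near the limit of 3 reads that a count of 0 allows, which is 0.108 to 0.147 CPM in these libraries. For Hspa1b the rate of reads in siUpf1 was 0.168 of that in siCtl, with an exact 95% interval of 0.0174 to 0.843 that covers counting error only. For the sum of both genes, 8 reads against 4, the ratio was 0.337 with an interval of 0.0742 to 1.26, so no difference was detectable at this depth. The loci share 1350 windows of 100 bases, which is 49.9% of those of Hspa1b, and reads from such windows can be dropped or split in counting. In all, 1395 windows of Hspa1a occur at another locus. Hspa1l and the antisense gene Gm10501 each share 134 windows of Hspa1a and 89 of Hspa1b, counting either strand. Gm10501 had 81 and 90 reads in siCtl and 136, 94 and 151 in siUpf1, whose origin was not tested. The remaining 1354 windows of Hspa1b occur in no other annotated gene, and the remaining 1473 of Hspa1a in none at another locus. Gm20481, an annotated gene that overlaps Hspa1a, shares 372 windows of Hspa1a and had 0 reads in every library. Reads from windows of overlapping genes can also be dropped. Few reads were counted for Hspa1a or Hspa1b outside the windows they share.

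Hsph1 (ENSMUSG00000029657.15, chr5:149614287-149636376, minus strand) encodes the HSP110 that exchanges nucleotide on HSP70. It had 11936 and 12010 normalized read counts in siCtl and 12477, 12346 and 12398 in siUpf1. Every siUpf1 value was slightly above both siCtl values, yet the log2 fold change of 0.05 (SE 0.038) was not called (DESeq2 adjusted p = 0.283). It has 11 annotated transcripts, and no window of the longest coding one occurred in another annotated gene. In the same libraries there were 2.87 and 2.89 reads of Hspa8 for each read of Hsph1 in siCtl, and 2.04, 2.05 and 1.98 in siUpf1. This ratio was lower in each siUpf1 library than in both siCtl libraries, whatever the scaling.

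**Figure D3:**
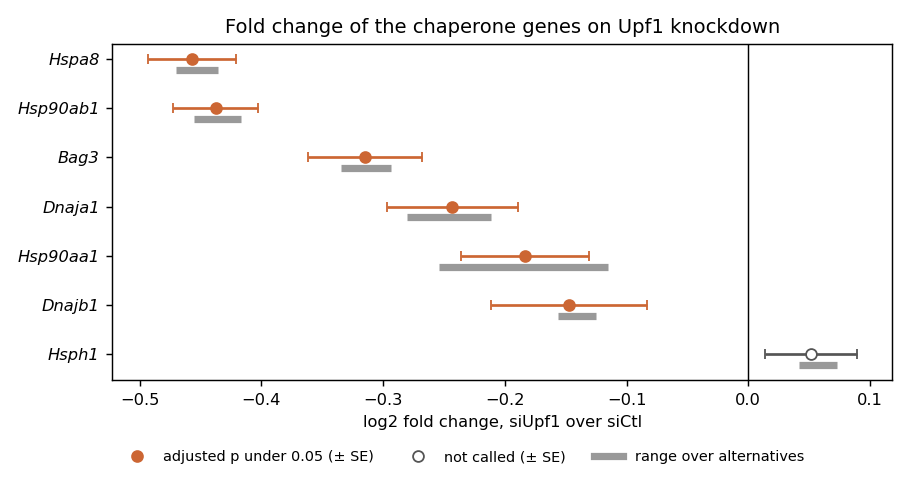
Log2 fold change of siUpf1 over siCtl for the 7 tested chaperone genes. Points with bars are the DESeq2 estimate ± SE, filled where the adjusted p was under 0.05, and gray bars give the range over the alternative settings and left-out libraries. Hspa8 (-0.46) and Hsp90ab1 (-0.44) are farthest from 0, Hsp90aa1 has the widest range (-0.25 to -0.11), and Hsph1 (0.05) is the one gene to the right of 0.

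The J-domain partners of HSP70 showed smaller decreases. Dnaja1 (ENSMUSG00000028410.13, chr4:40722150-40737149, plus strand) encodes a farnesylated J-domain protein of the cytosol. It had 3359 and 3520 normalized read counts in siCtl and 2954, 2849 and 2912 in siUpf1, without overlap. The log2 fold change was -0.24 (SE 0.054, DESeq2 adjusted p = 2.86e-05). Of the windows of its longest coding transcript, 14.8% occur in 3 pseudogenes that had at most 13 reads per library. The 3′ end of the gene overlaps Smu1 on the other strand, which strand-specific counting keeps apart.

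Dnajb1 (ENSMUSG00000005483.10, chr8:83608193-83612653, plus strand) encodes the stress-inducible HSP40. Its normalized read counts were 1802 and 1802 in siCtl and 1646, 1619 and 1615 in siUpf1. The groups did not overlap, but the difference was small, with a log2 fold change of -0.15 (SE 0.064) and a DESeq2 adjusted p of 0.0482. The call was lost whichever library was left out, with adjusted p-values between 0.0871 and 0.222 (DESeq2), and also with total-count scaling (0.137) and without independent filtering (0.0888). The fold change itself stayed between -0.16 and -0.13. There were 1.86 and 1.95 Dnaja1 reads for each Dnajb1 read in siCtl and 1.79, 1.76 and 1.80 in siUpf1.

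Bag3 (ENSMUSG00000030847.8, chr7:128523616-128546981, plus strand) encodes the BAG protein that joins HSP70 to small heat shock proteins and to selective autophagy. It had 5556 and 5681 normalized read counts in siCtl and 4435, 4492 and 4623 in siUpf1. The 3 knockdown libraries lay close together and below the controls. The log2 fold change was -0.31 (SE 0.047, DESeq2 adjusted p = 1.88e-10). None of its windows was shared with another gene. Hspb1 (ENSMUSG00000004951.10, chr5:135887919-135889563, plus strand), whose protein binds early unfolding intermediates, had 1 and 0 reads in siCtl and 0, 1 and 0 in siUpf1. A change in Hspb1 was not detectable at this depth, and 42.7% of the windows of its longest coding transcript also occur in other annotated genes. Of these, the pseudogene Hsp25-ps1 was at 0 in every library. The protein-coding Gm9817, which shares 331 windows, had 1 and 2 reads in siCtl and 0, 1 and 0 in siUpf1.

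Per length, the genes differed over 2 orders of magnitude in level. On the scale of CPM per kilobase of merged exons, siCtl levels were 1763 ± 32.1 for Hsp90ab1, 317 ± 5.39 for Hspa8, 155 ± 11.7 for Hsp90aa1, 86.9 ± 2.08 for Bag3, 65.3 ± 0.814 for Hsph1, 22.3 ± 0.181 for Dnajb1 and 15.8 ± 0.652 for Dnaja1 (SD, n = 2). In siUpf1 they were 1321 ± 18.2, 235 ± 7.57, 139 ± 10.5, 70.9 ± 2.29, 68.7 ± 2.15, 20.4 ± 0.697 and 13.5 ± 0.601 in the same order (SD, n = 3). Hsp90ab1, Hspa8 and Hsp90aa1 came first in that order in both groups. The order of the other genes depended on the length used. With the length of the longest coding transcript, a choice made after the data were seen, the siCtl level of Hsph1 was 124.8 ± 1.56 and lay above that of Bag3, whose length and level did not change. Dnaja1 (24.3 ± 1.00) and Dnajb1 (23.8 ± 0.194) then differed by less than the spread between libraries. Hsph1 has 7266 bases of merged exons but 3802 in its longest coding transcript, and which parts N2A cells use was not tested. Levels of Hspa8 and Hsp90aa1 also carry the uncertainty of the windows shared with pseudogenes. The 10 genes together took 0.804% and 0.830% of assigned reads in siCtl and 0.628% to 0.655% in siUpf1.

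**Figure D4:**
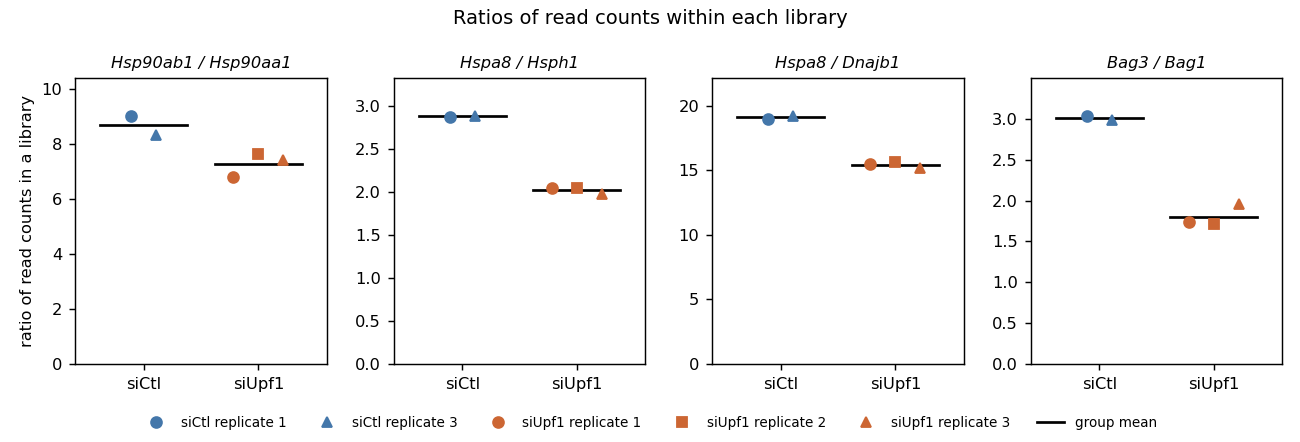
Ratios of read counts between pairs of genes within each library, on linear axes from 0, which no scaling between libraries can change. Blue symbols are siCtl, orange symbols siUpf1, shapes give the replicate number and lines are group means. In each of the 4 panels every siUpf1 library lies below both siCtl libraries, for example 1.71 to 1.95 Bag3 reads per Bag1 read in siUpf1 against 2.99 and 3.04 in siCtl. The first gene of each pair has the lower log2 fold change, so this direction repeats the fold changes and is no separate result.

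The wider chaperone network was described with 8 further lists that held 77 genes, each read against 22.9% lower and 22% higher among all tested genes. Of the heat shock factors and their binding protein, 1 of 4 tested genes rose and 1 fell. Hsf1, the main activator of the heat shock response, fell by 0.19 on the log2 scale (SE 0.059, DESeq2 adjusted p = 0.00383), a call that was lost without siCtl replicate 3 (adjusted p = 0.148). Hsf2 was not called, with a log2 fold change of 0.07 and an adjusted p of 0.47. Hsbp1, which binds HSF1 trimers, rose by 0.23 on the log2 scale.

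The other HSP70 and HSP110 family genes went both ways, with 2 of 7 tested genes higher and 2 lower. Hspa12a, a distant relative of HSP70, rose with a log2 fold change of 1.00, the largest increase in these lists, and its relative Hspa12b fell by 1.10 on the log2 scale from a level of about 157 normalized read counts. Hspa13 rose by 0.29 and Hspa4, an HSP110 like Hsph1, fell by 0.20. Further cytosolic J-domain genes were also mixed, with 3 of 13 higher and 5 lower. The values were 0.66 for Dnajc14 and 0.63 for Dnajb5, and -0.44 for Dnajb2 and -0.38 for the ribosome-associated Dnajc2.

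Partners and exchange factors of HSP70 held 3 genes that rose and 2 that fell among 8 tested, and of the 6 BAG genes, Bag3 included, 3 rose and 1 fell. Bag4 rose by 0.74 and Bag5 by 0.53 on the log2 scale. Bag1 rose too, from 1828 and 1902 normalized read counts to 2551, 2628 and 2368 (log2 fold change 0.43, DESeq2 adjusted p = 2.44e-10), and was named after its values were seen. Bag2 and Bag6 were not called, with log2 fold changes of 0.10 and -0.02 (DESeq2 adjusted p = 0.244 and 0.771). The ratio of Bag3 to Bag1 reads went from a mean of 3.01 to 1.80. The log2 fold change was -0.52 for Hspbp1, an exchange factor, and -0.49 for St13, which steadies HSP70 in its ADP state. Stub1, the ubiquitin ligase CHIP that acts on chaperone clients, was not called (log2 fold change -0.08, adjusted p = 0.304).

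Among 15 HSP90 co-chaperones, 3 rose and 5 fell. Ahsa1, the activator of the HSP90 ATPase, fell by 0.45 on the log2 scale, from 4158 and 4276 normalized read counts to 3079, 3213 and 2949. Sugt1 fell by 0.38, and Stip1, the adaptor HOP that hands clients from HSP70 to HSP90, fell by 0.21. Ppid, a co-chaperone of receptor complexes, rose by 0.28.

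Small heat shock protein genes and the folding machine for actin and tubulin moved one way as far as they were called. Of 5 tested small heat shock genes 4 fell and 0 rose, a count of 0 that also held at an unadjusted p-value under 0.05 and with edgeR. Hspb8, which works with BAG3, fell by 0.35 from 6402 and 6388 normalized read counts to 5128, 5155 and 4755. Hspb7 fell by 2.33 on the log2 scale, from 116 and 121 reads to 21, 14 and 37. Of the 14 subunits of the TRiC chaperonin and prefoldin, 12 fell and 0 rose, and again none was higher at an unadjusted p-value under 0.05 or with edgeR. All 14 had a mean of at least 1000 normalized read counts, a level at which 34.6% of tested genes were lower and 30.6% higher. Cct5 fell most, by 0.72, and Pfdn6 fell by 0.42. The median log2 fold change of the 14 genes was -0.22, similar in size to the -0.24 of the cytosolic heat shock chaperones.

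Of the 6 counterparts in mitochondria and the endoplasmic reticulum, 5 fell and 1 rose. All 6 had a mean of at least 1000 normalized read counts, where 34.6% of tested genes were lower and 30.6% higher. Hspa9, the mitochondrial HSP70, had 36154 and 36314 normalized read counts in siCtl and 20883, 20558 and 19870 in siUpf1. The fall of 0.83 on the log2 scale (SE 0.0375, DESeq2 adjusted p = 1e-104) was larger than that of any of the 7 tested cytosolic chaperone genes. Hspd1, the mitochondrial HSP60, fell by 0.27 and Hspa5, the HSP70 of the endoplasmic reticulum known as BiP, fell by 0.17. Trap1, the mitochondrial HSP90, rose by 0.15, a call that was lost without siCtl replicate 1 (DESeq2 adjusted p = 0.139) or without siCtl replicate 3 (0.0875).

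**Figure D5:**
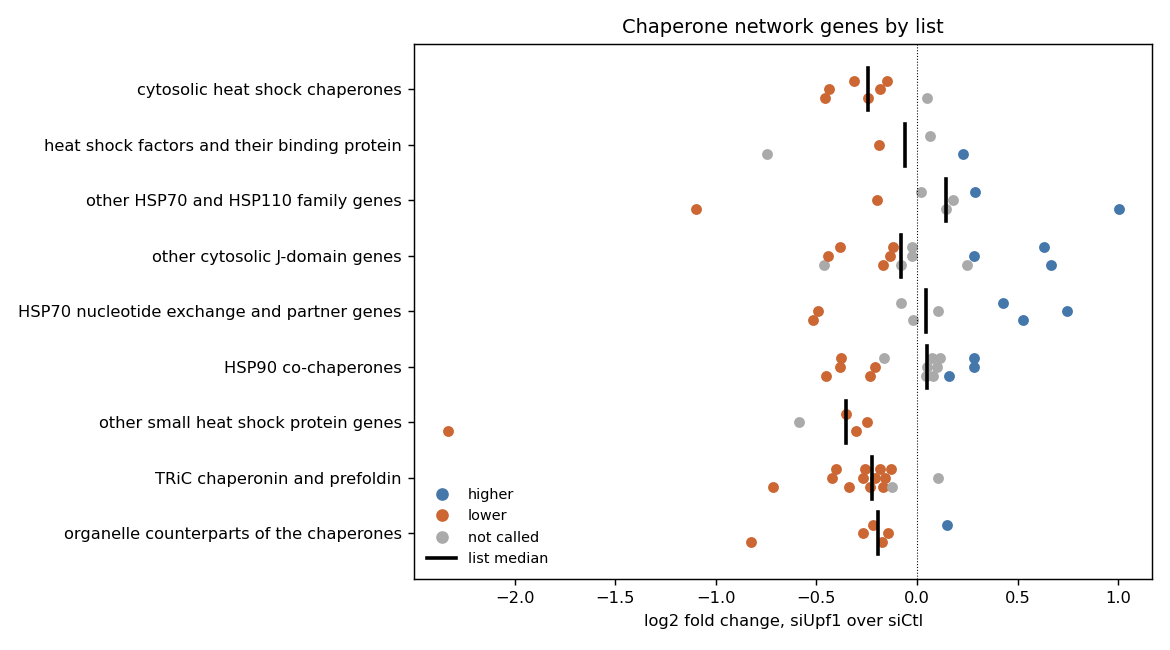
Log2 fold change of siUpf1 over siCtl for the tested genes of the 10 cytosolic heat shock chaperones and of 8 related lists. Each point is a gene, colored by its call (higher, lower or not called at an adjusted p under 0.05), and black bars are list medians. The cytosolic chaperones (median -0.24), the small heat shock proteins (-0.35), TRiC with prefoldin (-0.22) and the organelle counterparts (-0.20) lie mostly left of 0, whereas the other lists spread to both sides.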

How the data were processed

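The authors deposited raw read counts per gene for 5 libraries, not normalized and not pooled. Per the study's methods, stranded poly(A) libraries were sequenced as single-end 100-nt reads, trimmed with fastp, mapped to GRCm38.p6 with STAR (2.7.0f in the submitters' processing notes) and assigned to exons by featureCounts (Subread 1.6.4), with strand taken into account. Such counting can drop or split reads of near-identical copies.

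Counts were tested over the whole table with DESeq2 1.42.0 in R 4.3.3 (Wald test on group alone, median-of-ratios scaling, independent filtering, Benjamini-Hochberg adjustment). The tool and the threshold of 0.05 follow the study, which used DESeq2 1.22.1. Alternatives were edgeR 4.0.16 (quasi-likelihood), TMM or total-count scaling, a minimum of 10 counts in 2 libraries, no filter, the replicate number as a block, each library left out, and summed copies. The script was tested on simulated data. Named were the 10 members, Upf1, Hsf1, Hsf2, Stip1, Stub1, Hspa5, Hspa9 and Hspd1, and for each other list its called genes with the largest changes, up to 2 each way, of which 1 is not reported here. Members and lists were chosen with earlier results of these data known. The search for pairs of units was added after the data were seen. Positions, exons and shared windows came from GENCODE M21 (the same build), which held 99.8% of the gene identifiers. Windows came from the longest coding transcript of each member. They were searched in annotated transcripts only, and no genome was searched.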

Additional observations from a re-analysis of the deposited data

How the results depend on the processing

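When a replicate block was added to the model, 3919 genes were called in place of 6822, and 3 of the chaperone genes (Bag3, Hsp90ab1 and Hspa8) in place of 6. Deviations of same-numbered libraries from their group means had correlations of -0.0971 and -0.0937 over 11898 genes. With 2 siCtl libraries the siCtl deviations mirror each other, so these values are not separate checks. They cannot decide whether the numbers pair the samples. Dnaja1 lost its call only under this replicate block (adjusted p = 0.0674), and Hsp90aa1 and Dnajb1 lost theirs there too (0.165 and 0.381). Among the other named genes, so did Hsf1 (0.161), Hsbp1 (0.0797), Hspa13 (0.0584), Hspa5 (0.0698) and Trap1 (0.268). No siCtl replicate 2 was available, so under the block siUpf1 replicate 2 could not inform the difference between groups. The Dnaja1 log2 fold change was -0.23 (SE 0.1005) under the block and -0.23 (SE 0.0618) without siUpf1 replicate 2. Without siUpf1 replicate 2 and without the block, Dnaja1, Hsf1, Hsbp1, Hspa13, Hspa5 and Trap1 were called, and Hsp90aa1 and Dnajb1 were not. What the lost calls owe to the missing siCtl replicate 2 was not tested. Leaving out 1 library gave 4767 to 6059 called genes and 4 or 5 chaperone genes called lower, and edgeR gave 8392 and 6. No chaperone gene was called higher under any alternative. Over all genes named in the text by rule, 459 of the recomputed fold changes kept their direction and side of the threshold, 22 kept the direction but lost the call, and none reversed. Hspa8, Hsp90ab1 and Bag3 kept their calls in all 13 alternatives. Adding Hspa8 to Gm15459 was chosen after the data were seen. Summing Hspa1a and Hspa1b moved no count. The 2 siCtl libraries give a poor estimate of control spread, and depth sets no useful limit on Hspa1a, Hspa1b or Hspb1.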

Other observations

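Hspa8 holds 3 small nucleolar RNA genes in its bounds, and Hspa9 and Tcp1 of the related lists hold 2 each. All 3 host genes fell. Among 211 tested protein-coding genes with a small nucleolar RNA gene inside on the same strand, DESeq2 called 50.2% lower and 17.5% higher, with a median log2 fold change of -0.19. Among the 12535 without one, 26.2% were lower and 24.6% higher, with a median of -0.02. Host genes had more reads, with a median of 2808 normalized read counts against 807. Among genes with a mean of at least 1000, 58.6% of 157 host genes were lower against 33.9% of 5521 others. This grouping was chosen after the data were seen and was not tested.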
